A study of Mus musculus with 15 samples.

Results

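Haem synthesis and iron handling were followed through 36 genes in mouse fetal liver cells of day E13.5 that carry TER119. The 36 genes were listed by name under a rule that uses no measured value, although earlier results of these data were known when the list was drawn up. All 36 had a transcript cluster of their own among the 19938 genes that the arrays resolved. They comprised 8 haem enzymes, 7 genes of mitochondrial transport and control of the first enzyme, 4 of iron uptake, 5 of iron storage and chaperoning, 2 of export, 5 of haem binding and breakdown, and 5 of iron-sulphur cluster assembly and iron regulation. The samples were 15 Affymetrix arrays in 4 genotypes, all on the FVB/NJ strain. The WT group held 4 wild-type arrays. The Klf8gt group held 4 arrays labelled Klf8gt/gt, a gene trap in the X-linked gene Klf8. The Klf3KO group held 3 arrays labelled Klf3-/-, and the DKO group held 4 arrays labelled Klf3-/- Klf8gt/gt. TER119 is a surface antigen of maturing red cells, and in all 4 groups the cells were selected with magnetic beads carrying an antibody to it.

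Haem is built partly in the mitochondrion and partly in the cytosol, from glycine and succinyl-CoA to protoporphyrin, into which iron is inserted at the last step. Maturing red cells take up iron as transferrin through endosomes and pass most of it to the mitochondrion for haem, and iron regulatory proteins adjust uptake and storage. The fetal liver also holds macrophages that engulf expelled nuclei and return iron, and these cells are known for high levels of the iron exporter ferroportin and of haem-degrading enzymes. KLF3 and KLF8 are related zinc finger repressors that bind CACCC-type sequences, the same class of site that the erythroid activator KLF1 uses.

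The values are log2 signals, on which a difference of 1 is a 2-fold change, and the group names stand for the labels. The Klf3 signal was 11.16 to 11.40 on the Klf3KO arrays and 11.06 to 11.73 on the DKO arrays, against 10.12 to 10.51 on the WT arrays. It was thus not lower where Klf3 is labelled null. A cluster can rest on probes outside the deleted part, so this signal does not check the label. Klf8 lay below every array's median (6.28 to 6.41) in the WT and Klf8gt groups, so its signal does not check the trap between those groups. It stood at 8.42 to 8.89 on the Klf3KO arrays and lower, at 6.85 to 8.04, on the DKO arrays, which carry the trap label. The erythroid genes Epor, Slc4a1, Gata1 and Klf1 were above the array medians in every group, with Slc4a1, the anion exchanger, at 13.56 to 13.91. The hepatocyte genes Alb and Afp were also high, at 13.56 to 14.33 on all 15 arrays. The labels do not state that each array is a separate embryo or name the litters, so the p-values measure the spread between these samples. Mean Y-linked signal was 8.48 to 8.80 on all 4 WT arrays and on 2 Klf8gt, 1 Klf3KO and 2 DKO arrays, and 4.24 to 4.54 on the others. Each mutant group thus mixed high and low arrays and the WT group did not. Sex and genotype are therefore partly confounded in every comparison with WT.

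Members are described below by their values on each array and by the limma test, with Benjamini-Hochberg adjusted p-values (all 23410 tested clusters together) and a threshold of 0.05. In bulk RNA a lower signal from fewer cells of a type and one from less RNA per cell cannot be told apart. All group means of the members lay above the array medians, the lowest at 7.56.

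The main difference lay between the DKO and WT groups, and it ran downward. Of the 36 members, 4 fell and 0 rose, namely the exporter Slc40a1, the haem enzyme Uros, the transferrin receptor Tfr2 and the biliverdin reductase Blvra. Over all clusters tested 3.3% were called in this comparison, and 1.78% were called lower. In all, 30 of the 36 differences were below 0, with a median of -0.25, beside 55.5% of all clusters and a median of -0.02. At an unadjusted p under 0.05 there were 17 members, all of them lower, beside 17.9% of all clusters in either direction and 10.1% lower. For 3 members (Slc40a1, Tfr2 and Slc25a39) every DKO array was below every WT array, beside 4.75% of all clusters, and 8.4% of clusters had no overlap in either direction. Without DKO replicate 1 the count of members called was 7, with 5.93% of all clusters called, and without DKO replicate 3 or WT replicate 2 it was 0. With only the 8 DKO and WT arrays in the fit it was also 0. These counts of 0 are given without a share of all clusters and are not read as results about the members.

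**Figure D1:**
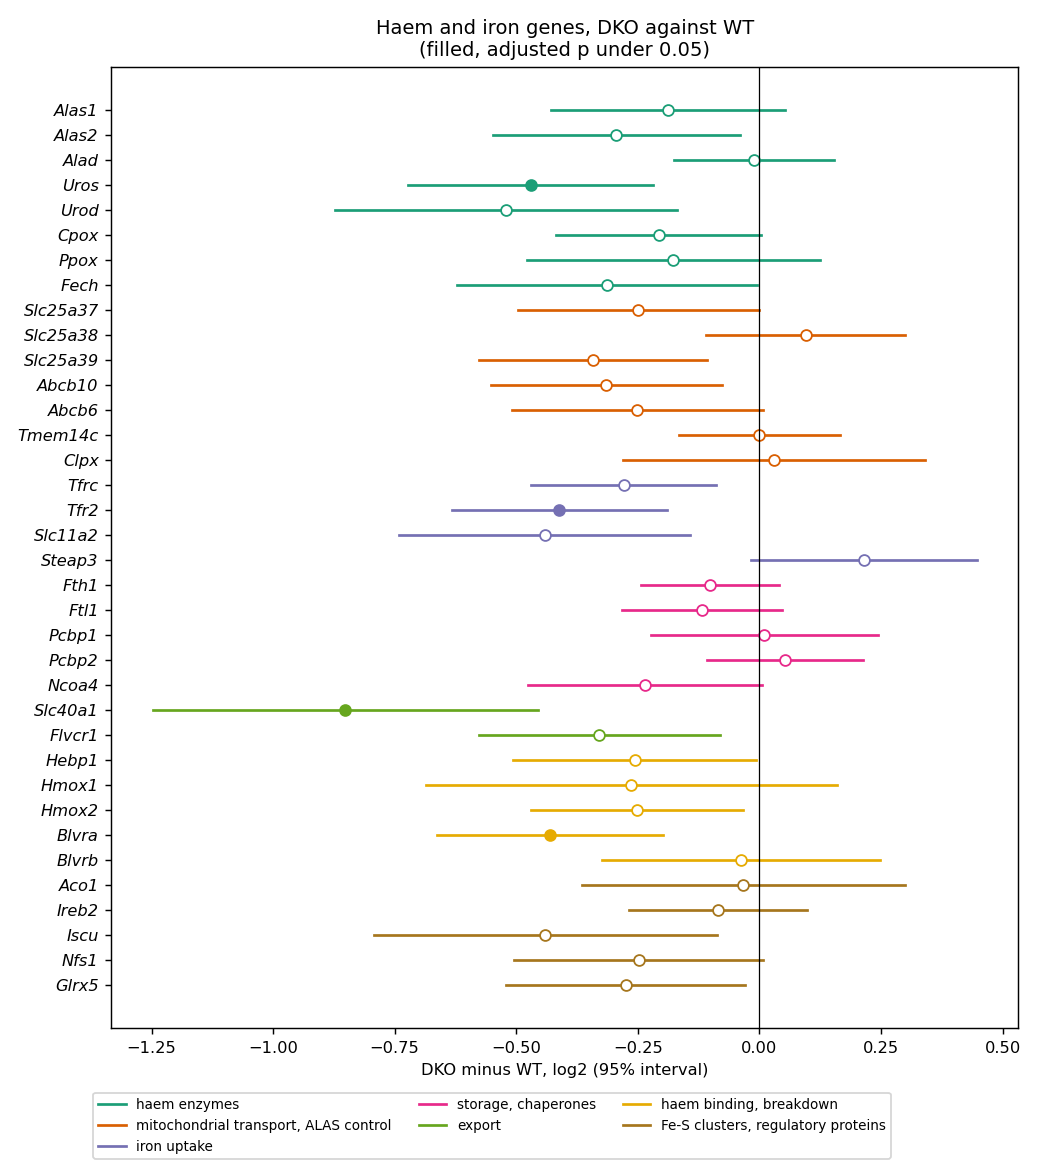
Difference between the DKO and WT group means for each of the 36 genes (x axis, log2, with 95% intervals; y axis, genes coloured by role), filled where the adjusted p was under 0.05. The points lie left of 0 for 30 genes, and the filled ones are Uros, Tfr2, Slc40a1 and Blvra.

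Since KLF3 and KLF8 bind CACCC-type sequences, promoter sequences are shown for 5 members. They are Alas2, the erythroid gene for the first enzyme, and the 4 members with a call in any comparison and a RefSeq start-site window, Uros, Tfr2, Steap3 and Blvra. Each is the 120 bases before the furthest upstream RefSeq start, 5′ to 3′ on the gene's strand in build GRCm38.p6. Capitals mark CACCC and AGATAA on either strand (GGGTG and TTATCT on the strand shown).
Alas2 (chrX:150547297-150547416, plus strand): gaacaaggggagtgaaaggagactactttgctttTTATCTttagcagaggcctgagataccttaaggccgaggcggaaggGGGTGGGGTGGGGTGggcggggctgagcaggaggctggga
Uros (chr7:133709296-133709415, minus strand): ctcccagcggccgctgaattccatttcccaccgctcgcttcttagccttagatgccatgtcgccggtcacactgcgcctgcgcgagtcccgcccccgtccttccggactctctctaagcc
Tfr2 (chr5:137569720-137569839, plus strand): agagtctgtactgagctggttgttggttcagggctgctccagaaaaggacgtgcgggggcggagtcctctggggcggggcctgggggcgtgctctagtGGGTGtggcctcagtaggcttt
Steap3 (chr1:120271081-120271200, minus strand): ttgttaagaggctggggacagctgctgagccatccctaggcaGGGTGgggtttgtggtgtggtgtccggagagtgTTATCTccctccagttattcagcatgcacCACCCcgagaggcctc
Blvra (chr2:127070537-127070656, plus strand): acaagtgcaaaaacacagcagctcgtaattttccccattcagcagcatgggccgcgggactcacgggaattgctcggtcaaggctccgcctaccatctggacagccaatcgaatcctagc
The Alas2 stretch held 3 adjoining CACCC matches, beginning 40, 35 and 30 bases before the start, and an AGATAA match 86 bases before it. Tfr2 held 1 CACCC match, 22 bases before the start. Steap3 held 2, at 78 and 16 bases, with an AGATAA match at 45 bases. The Uros and Blvra stretches held neither. These stretches cover 1 start each, whereas RefSeq gives Uros 2 windows, Tfr2 3 and Steap3 4.

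CACCC letters are common near start sites. Of 32851 RefSeq windows of 300 bases, 57.5% held CACCC on either strand, and 31.7% held it in the 120 bases before the start. Of the 46 windows of the 30 members with one, 32 held it (69.6%), and 18 (39.1%) in the 120 bases before the start. AGATAA, a common form of the GATA factor site, was in 11.2% of all windows and in 3 of the 46 member windows (6.52%). A match describes letters and is not a site. Fech, Slc25a37, Slc11a2, Slc40a1, Hmox1 and Iscu are named without a sequence.

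The haem enzymes were all lower on average in DKO than in WT arrays, by -0.52 to -0.01, and 1 of 8 passed the test. The median difference was -0.25. That gene was Uros, whose product closes the linear tetrapyrrole into the uroporphyrinogen ring. Its signal was 11.49, 11.56, 11.42 and 11.27 on the WT arrays and 11.32, 10.99, 10.65 and 10.91 on the DKO arrays. DKO replicate 1 lay above WT replicate 4, and the other 3 DKO arrays lay below every WT array. Uros fell by 0.47 ± 0.12 (SE) on the log2 scale, 1.39-fold (limma, adjusted p = 0.0401). The Klf8gt arrays stood at 11.27 to 11.51 and the Klf3KO arrays at 11.13 to 11.34, both overlapping the WT range.

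The Uros call was kept on leaving out DKO replicate 1 (adjusted p = 0.00387), Klf8gt replicate 1 (0.0336) or WT replicate 4 (0.036), and lost without any other array (0.0517 to 0.129). Erythroid markers moved with Uros: 12 of 15 listed were measured, 2 of the 12 fell in DKO and all 12 were below WT on average. Their mean signal was 11.97 to 12.35 on the WT arrays and 12.24, 11.86, 11.57 and 11.61 on the DKO arrays, so the DKO array with the highest Uros signal also had the highest marker signal. With that mean as a covariate the Uros difference was -0.18 (limma, adjusted p = 0.321). With the macrophage mean it was -0.63 (adjusted p = 0.0966) and with the Y-linked mean -0.44 (adjusted p = 0.11).

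Urod, which decarboxylates the ring made by UROS, had a larger mean difference with more spread. Its signal was 13.17, 13.20, 13.21 and 12.95 in WT and 13.10, 12.74, 12.52 and 12.08 in DKO. DKO replicate 4 was the lowest of all 15 arrays and DKO replicate 1 lay within the WT range. The difference of -0.52 ± 0.17 did not pass (adjusted p = 0.103). With DKO replicate 1 left out it was -0.69 and passed (adjusted p = 0.0109). That array was the highest DKO array for Urod, so leaving it out lowers the DKO mean.

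Alas2, the erythroid form of the first and rate-limiting enzyme, stood at 13.56, 13.70, 13.73 and 13.57 in WT and 13.61, 13.52, 13.30 and 12.95 in DKO. DKO replicate 1 lay within the WT range and the other 3 DKO arrays below it. The Alas2 difference was -0.29 ± 0.12 (adjusted p = 0.202). Fech, which inserts iron into protoporphyrin, differed by -0.31 ± 0.14 (adjusted p = 0.27). Cpox and Ppox, which act on coproporphyrinogen and protoporphyrinogen, differed by -0.21 and -0.18, neither past the threshold. Alad, which makes porphobilinogen, differed by -0.01, with a 95% interval of -0.18 to 0.15.

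Alas1, the form of the first enzyme used outside red cells, showed another order of the groups. Its signal was 7.84, 7.77, 7.96 and 8.06 in WT, 7.78, 8.38, 8.19 and 8.16 in Klf8gt, 7.95, 7.99 and 8.0 in Klf3KO and 7.57, 7.64, 7.83 and 7.84 in DKO. The DKO arrays were below all 3 Klf3KO arrays, while Klf8gt replicate 1 fell within the DKO range and the other Klf8gt arrays were the highest of the study. DKO differed from Klf8gt by -0.41 ± 0.11, which did not pass (limma, adjusted p = 0.0609) and did pass with a replicate block in the model (adjusted p = 0.0405). The interaction of both genotypes was -0.48 ± 0.17 for Alas1, with the smallest p among the members and an adjusted p of 0.226.

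Hepatocyte markers moved with Alas1 among the Klf8gt arrays and among the DKO arrays, but not between DKO and WT. Of 12 listed, 11 were measured, and their mean signal was 11.74 to 12.14 on WT arrays, 12.11, 12.80, 12.63 and 12.65 on Klf8gt arrays, 12.07 to 12.33 on Klf3KO arrays and 11.07, 12.17, 12.26 and 12.28 on DKO arrays. The 3 Klf8gt arrays high in Alas1 were the 3 highest in these markers. DKO replicates 2 to 4 were above every WT array in the markers, while their Alas1 signal, 7.64 to 7.84, was below the WT mean of 7.91. With the mean as a covariate, the Alas1 difference between Klf8gt and WT went from 0.22 to 0.01, and that between DKO and Klf8gt from -0.41 to -0.20.

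**Figure D2:**
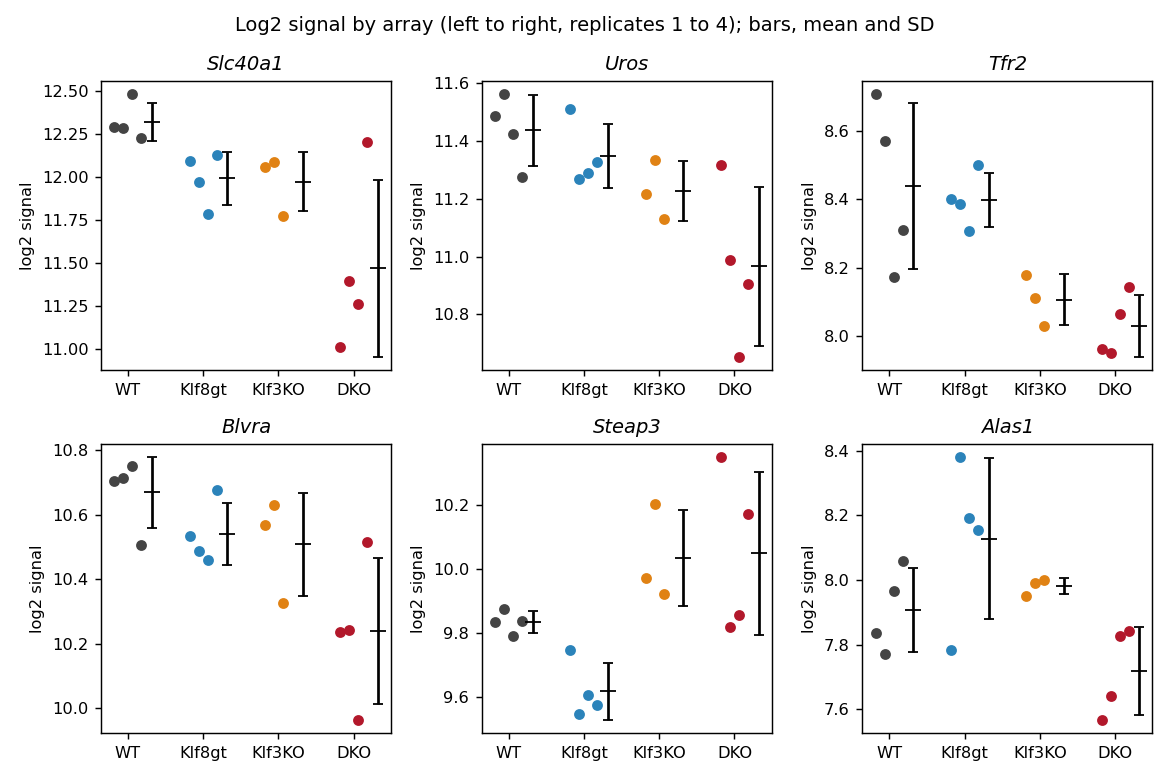
Log2 signal (y axis) on each of the 15 arrays (points, by genotype on the x axis) for Slc40a1, Uros, Tfr2, Blvra, Steap3 and Alas1, with the group mean and SD beside them. Slc40a1 lies between 11.01 and 11.40 on 3 DKO arrays and at 12.21 on the other, and Steap3 is lower on all 4 Klf8gt arrays than on the DKO arrays.

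None of the 7 genes of mitochondrial transport and control of the first enzyme passed the test in any comparison. Their median difference between DKO and WT was -0.25, with 4 below 0. Slc25a39, a mitochondrial glutathione importer, stood at 12.30, 12.45, 12.51 and 12.31 in WT and 12.28, 12.18, 11.89 and 11.86 in DKO. All 4 DKO arrays were below all 4 WT arrays, the nearest pair being DKO replicate 1 and WT replicate 1. The Slc25a39 difference was -0.34 ± 0.11 (adjusted p = 0.109). Abcb10, an inner-membrane transporter that stabilises mitoferrin 1, differed by -0.31 ± 0.11 (adjusted p = 0.144), and Slc25a37, mitoferrin 1 itself, which imports iron, by -0.25 ± 0.12 (adjusted p = 0.278).

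Abcb6, a porphyrin transporter, differed by -0.25 (adjusted p = 0.293). The other 3 members of that group were near or above WT on average. Tmem14c, needed for protoporphyrinogen import, differed by 0.00, with an interval of -0.16 to 0.16. Clpx, an unfoldase that acts on the first enzyme, differed by 0.03. Slc25a38, the glycine importer that feeds the pathway, was 11.59, 11.70, 11.66 and 11.46 in WT and 11.90, 11.89 and 11.73 in Klf3KO, where all 3 arrays were above all WT arrays. That Klf3KO difference was 0.24 ± 0.10 and did not pass (adjusted p = 0.616). With the erythroid marker mean as a covariate it was 0.36 (adjusted p = 0.0227).

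Among the uptake genes, Tfr2 fell in DKO and Steap3 was the member with the highest difference from WT. Tfr2 encodes the second transferrin receptor, which also associates with the erythropoietin receptor. Its signal was 8.71, 8.57, 8.17 and 8.31 in WT, 8.40, 8.39, 8.31 and 8.50 in Klf8gt, 8.18, 8.11 and 8.03 in Klf3KO, and 7.96, 7.95, 8.06 and 8.14 in DKO. All DKO arrays were below all WT and all Klf8gt arrays, and the Klf3KO arrays overlapped both the WT and the DKO range. Tfr2 fell by 0.41 ± 0.10 in DKO against WT, 1.33-fold (limma, adjusted p = 0.0414). In Klf3KO against WT the difference was -0.33 ± 0.11 (adjusted p = 0.392), and in DKO against Klf8gt it was -0.37 ± 0.10 (adjusted p = 0.0652).

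Averaged over both Klf8 backgrounds, loss of Klf3 went with a fall of Tfr2 by 0.35 ± 0.08 (limma, adjusted p = 0.0194). It was the 1 member of 36 called in that contrast, in which 2.38% of all clusters were called and 0.931% were called lower. At an unadjusted p under 0.05 there were 12 members, beside 11.3% of clusters, and 29 of 36 averaged differences were below 0, beside 52.1%. The averaged Tfr2 call was lost without Klf3KO replicate 2 (adjusted p = 0.0553), Klf3KO replicate 3 (0.0698) or WT replicate 2 (0.0509), and with the macrophage marker mean as a covariate (-0.29, adjusted p = 0.207). The DKO against WT call was kept without DKO replicate 4 (0.0327), Klf8gt replicate 1 (0.0426), WT replicate 3 (0.0168) or WT replicate 4 (0.0389), and lost without any other array (0.0516 to 0.135). It was also lost with the macrophage (-0.30, adjusted p = 0.355) or erythroid (-0.42, adjusted p = 0.112) mean as a covariate.

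Steap3, the endosomal reductase that converts transferrin iron for export to the cytosol, had 9.83, 9.87, 9.79 and 9.84 in WT, 9.75, 9.55, 9.60 and 9.57 in Klf8gt, 9.97, 10.20 and 9.92 in Klf3KO and 10.35, 9.82, 9.86 and 10.17 in DKO. The Klf8gt arrays were below all others, the Klf3KO arrays were above all WT arrays, and 2 of the 4 DKO arrays lay within the WT range. Steap3 was higher in DKO than in Klf8gt by 0.43 ± 0.11, 1.35-fold (limma, adjusted p = 0.0425), the only member called in that comparison of 36. Of all clusters 3.35% were called there and 1.48% were called higher. At an unadjusted p under 0.05 there were 10 members, 9 of them lower, beside 18.7% of clusters in either direction and 11.3% lower. The differences were below 0 for 26 members, beside 50.7% of clusters, and 3 members had no overlap (Steap3 higher, Tfr2 and Flvcr1 lower), beside 7.33%. Against WT, Steap3 differed by -0.22 in Klf8gt, 0.20 in Klf3KO and 0.21 in DKO, none past the threshold, and its interaction was 0.23 ± 0.16 (adjusted p = 0.522).

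The Steap3 call was kept without DKO replicate 2 (adjusted p = 0.021), DKO replicate 3 (0.0355), Klf3KO replicate 2 (0.0467) or Klf8gt replicate 1 (0.0262), and lost without any other array (0.0517 to 0.129). With the hepatocyte marker mean as a covariate the Steap3 difference was 0.24 (adjusted p = 0.212), and with the erythroid mean 0.53 (adjusted p = 0.00398). With the macrophage mean Steap3 differed by 0.38 (adjusted p = 0.297) and with the Y-linked mean by 0.43 (adjusted p = 0.0558), so both also ended the call. Tfrc, the main transferrin receptor of red cell precursors, stood at 13.54, 13.70, 13.73 and 13.63 in WT and 13.59, 13.34, 13.31 and 13.24 in DKO, where replicate 1 alone lay within the WT range. Its difference was -0.28 ± 0.09 (adjusted p = 0.105). Slc11a2, the transporter that moves iron out of the endosome, differed by -0.44 ± 0.14 (adjusted p = 0.105), and DKO replicate 3 was its lowest array at 9.90.

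None of the 5 storage and chaperone genes passed in any comparison. The ferritin subunits were close to WT in DKO: Fth1, the heavy chain, differed by -0.10 (interval -0.24 to 0.04), and Ftl1, the light chain, by -0.12 (interval -0.28 to 0.05). In Klf8gt, Ftl1 stood at 13.47, 13.39, 13.25 and 13.30, below all 4 WT arrays (13.49 to 13.62). That difference was -0.20 ± 0.08 (adjusted p = 0.312). The Ftl1 value came from the cluster that names this gene alone. Pcbp1 and Pcbp2, chaperones that hand iron to ferritin, differed by 0.01 and 0.05 between DKO and WT. DKO replicate 4 was the highest of the 15 arrays for both, at 11.53 for Pcbp1 and 12.92 for Pcbp2. Ncoa4, which carries ferritin to the lysosome, differed by -0.24 (adjusted p = 0.29), and its other cluster gave -0.24 as well.

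The largest difference between DKO and WT among the 36 genes was in Slc40a1, which encodes ferroportin, the cellular iron exporter. Its signal was 12.29, 12.28, 12.48 and 12.23 in WT, 12.09, 11.97, 11.79 and 12.13 in Klf8gt, 12.06, 12.09 and 11.78 in Klf3KO, and 11.01, 11.40, 11.27 and 12.21 in DKO. Every mutant array was below every WT array, DKO replicates 1 to 3 were below all the others, and DKO replicate 4 was above all Klf8gt and Klf3KO arrays. Slc40a1 fell by 0.85 ± 0.19 in DKO, 1.81-fold (limma, adjusted p = 0.0186). In Klf8gt and Klf3KO, which share the WT arrays with that comparison, the differences were -0.33 (adjusted p = 0.444) and -0.35 (adjusted p = 0.715). The interaction was -0.18 ± 0.27 (adjusted p = 0.803). The call was lost without DKO replicate 3 (adjusted p = 0.0653), WT replicate 2 (0.0524) or WT replicate 3 (0.0739), and without DKO replicate 4 the fall was 1.10 (adjusted p = 6.47e-05).

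Macrophage markers moved with Slc40a1. All 15 listed were measured, 7 fell in DKO against WT and all 15 were below WT on average, with a median of -1.17. Their mean signal per array was 9.08 to 9.46 in WT, 8.63 to 9.15 in Klf8gt, 8.51 to 9.04 in Klf3KO, and 7.28, 8.16, 8.04 and 8.97 in DKO. DKO replicate 1 had the lowest value and replicate 4 the highest of the DKO arrays, for the markers and for Slc40a1 alike. Adgre1, Csf1r, Timd4 and C1qa were above the array medians on every array, and Cd163 stood between 4.10 and 4.62, below every array median. With the marker mean as a covariate the Slc40a1 difference was -0.08 ± 0.12 (limma, adjusted p = 0.766).

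Flvcr1, described as a haem exporter, stood at 7.78, 7.81, 8.09 and 7.87 in WT and 7.24, 7.57, 7.64 and 7.79 in DKO, where only replicate 4 reached the WT range. Its difference was -0.33 ± 0.12 from WT (adjusted p = 0.145) and -0.40 ± 0.12 from Klf8gt (adjusted p = 0.0731), where all DKO arrays were below all Klf8gt arrays. A second Flvcr1 cluster gave -0.13 against WT and 0.04 against Klf8gt, so both clusters differed in direction in the latter comparison.

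**Figure D3:**
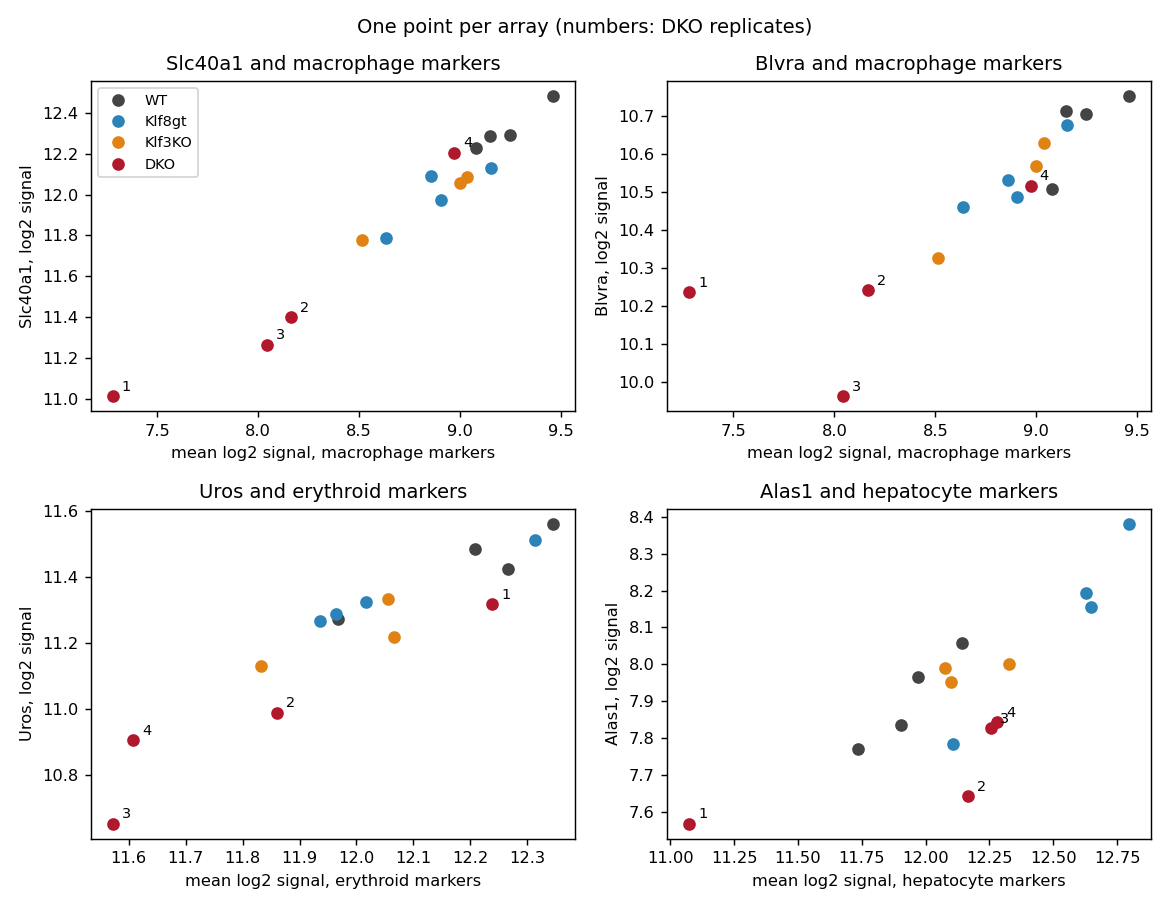
Log2 signal of Slc40a1 and Blvra (y axes) against the mean macrophage marker signal, of Uros against the erythroid and of Alas1 against the hepatocyte marker mean (x axes), 1 point per array, with DKO replicates numbered. DKO replicate 1, at 7.28 in macrophage markers, has the lowest Slc40a1 signal (11.01), while replicate 4, at 8.97, has the highest of the DKO arrays (12.21).

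Of the 5 genes of haem binding and breakdown, Blvra fell in DKO and the others did not pass. Blvra encodes biliverdin reductase A, which makes bilirubin from the product of haem oxygenase. Its signal was 10.71, 10.71, 10.75 and 10.51 in WT and 10.24, 10.24, 9.96 and 10.52 in DKO. Replicates 1 to 3 of DKO were below all WT arrays, and replicate 4 lay just above the lowest of them. Blvra fell by 0.43 ± 0.11, 1.35-fold (limma, adjusted p = 0.0432). With the macrophage marker mean as a covariate the difference was -0.16 (adjusted p = 0.602), and with the erythroid mean -0.35 (adjusted p = 0.213).

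The Blvra call was kept without DKO replicate 4 (adjusted p = 0.00822), Klf3KO replicate 3 (0.042), Klf8gt replicate 1 (0.0443), Klf8gt replicate 4 (0.0499) or WT replicate 4 (0.0354), and lost without any other array (0.0509 to 0.135). Hmox1, the inducible haem oxygenase, was 12.06, 12.13, 12.37 and 12.02 in WT, 11.54 to 12.28 in Klf8gt, and 11.31, 12.22, 11.70 and 12.30 in DKO. Its arrays were spread widely within the Klf8gt (SD 0.33) and DKO (SD 0.46) groups, with replicate 1 lowest in each, and the DKO difference was -0.26 (adjusted p = 0.54). Hmox2, the constitutive form, differed by -0.25 (adjusted p = 0.202), and Hebp1, a haem-binding protein, by -0.26 (adjusted p = 0.264). Blvrb, the reductase abundant in red cells, differed by -0.04, with an interval of -0.32 to 0.25.

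No gene of iron-sulphur assembly or iron regulation passed in any comparison. In DKO against WT all 5 were below 0, with a median of -0.25. Iscu, the scaffold on which clusters form, stood at 10.07, 10.05, 10.16 and 9.95 in WT and 9.97, 9.97, 9.50 and 9.03 in DKO. DKO replicates 1 and 2 lay within the WT range and replicates 3 and 4 below it, so that its DKO SD was 0.45 and its difference -0.44 ± 0.17 did not pass (adjusted p = 0.17). Glrx5, which passes clusters on, differed by -0.28 (adjusted p = 0.22) and Nfs1, the cysteine desulphurase, by -0.25 (adjusted p = 0.296). For the iron regulatory proteins the mean DKO differences were -0.03 for Aco1 (interval -0.37 to 0.30) and -0.09 for Ireb2 (interval -0.27 to 0.10). Aco1 was spread from 9.20 to 9.96 on the DKO arrays (SD 0.33). Aco1 stood at 9.57, 10.25, 10.15 and 10.01 in Klf8gt against 9.60 to 9.88 in WT, with replicates 2, 3 and 4 high as for Alas1.

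The single mutants had no member past the threshold. In Klf3KO against WT limma called 0 of 36 members, beside 0.585% of all clusters, and 2 members, Tfr2 (-0.33) and Slc25a38 (0.24), had an unadjusted p under 0.05, beside 7.83% of clusters. In Klf8gt against WT limma called 0 of 36, beside 0% of all clusters, and Ftl1 (-0.20) alone had an unadjusted p under 0.05, beside 13.4% of clusters. The differences from WT were below 0 for 26 members in Klf3KO (median -0.09, beside 51.9% of clusters) and for 29 in Klf8gt (median -0.12, beside 53.8%). The arrays had no overlap with WT for 5 members in Klf3KO, beside 14.5% of clusters, with Cpox and Slc40a1 lower and Slc25a38, Steap3 and Pcbp2 higher. In Klf8gt they had none for 3 members, Steap3, Ftl1 and Slc40a1, all lower, beside 5.36% of clusters. Without Klf8gt replicate 1, Alas1 passed in Klf8gt against WT at 0.34 (adjusted p = 0.0479). That array was the lowest of its group for Alas1, so leaving it out raises the Klf8gt mean.

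DKO against Klf3KO also gave 0 of 36 calls in limma, beside 0.047% of all clusters. At an unadjusted p under 0.05 there were 3 members, Slc40a1 (-0.50), Blvra (-0.27) and Alas1 (-0.26), beside 12.9% of clusters. Of the 36 differences 33 were below 0, with a median of -0.14, beside 54.4% of clusters. Alas1 was the 1 member without overlap there, beside 9.95% of clusters. Without DKO replicate 4 the Slc40a1 difference was -0.75 and passed (adjusted p = 0.00945). That array was the highest DKO array for Slc40a1, so leaving it out lowers the DKO mean. The interaction of both genotypes passed for 0 of 36 members, beside 0.00427% of clusters, and at an unadjusted p under 0.05 for Alas1 alone, beside 14.4%.

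The DKO arrays differed from each other more than those of other groups. The median SD over the 36 members was 0.24 in DKO, against 0.11 in WT, 0.13 in Klf8gt and 0.10 in Klf3KO, while over all tested clusters it was 0.17, 0.12, 0.15 and 0.11. Slc40a1 had the widest DKO spread (SD 0.52). Different members were low on different DKO arrays. DKO replicate 3 was the lowest of the 15 arrays for 13 members, replicate 4 for 11, replicate 1 for 7 and replicate 2 for 1. Relative to the WT mean, the haem enzymes had a median of -0.03 on DKO replicate 1 and -0.52 on replicate 4, whereas the export genes had -0.98 and -0.11.

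**Figure D4:**
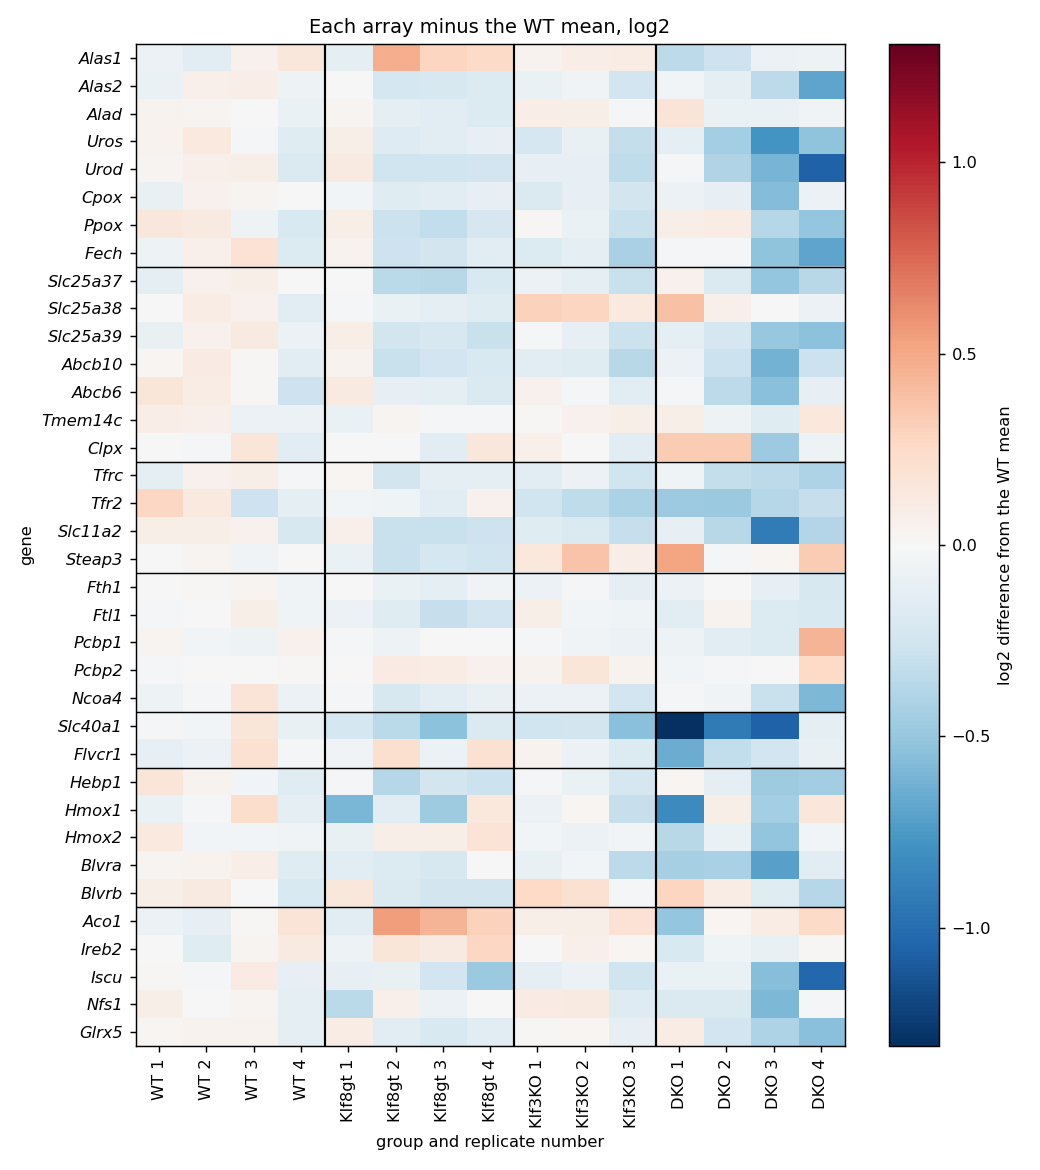
Each array's log2 signal minus the WT mean (colour scale, blue lower and red higher) for the 36 genes (y axis, grouped by role) on the 15 arrays (x axis, by group and replicate). By their median, the haem enzymes are lowest on DKO replicates 3 (-0.45) and 4 (-0.52). Alas1 however is lowest on DKO replicate 1 and Alad on Klf8gt replicate 4. Slc40a1 and Flvcr1 are lowest on DKO replicate 1. The haem enzymes on Klf8gt replicate 1 (median 0.04) are not as low as on the other Klf8gt arrays (medians -0.20 to -0.16).

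Klf8gt replicate 1 stood apart from its group in the same genes. It was the highest Klf8gt array for 21 of the 36 members, among them Urod (13.25 against 12.87 to 12.88) and Slc11a2 (10.88 against 10.53 to 10.55). Without this array and DKO replicate 1 together, 14 members fell in DKO against WT: Alas2, Uros, Urod, Slc25a37, Slc25a39, Abcb10, Tfrc, Tfr2, Slc11a2, Slc40a1, Hebp1, Blvra, Iscu and Glrx5. The same fit called 9.65% of all clusters, against 3.3% with all 15 arrays. These arrays were left out because they stand apart in their groups. DKO replicate 1 was the highest DKO array for 17 of the 36 members, so leaving it out lowers their DKO mean. The count therefore describes the remaining 13 arrays and is not a separate test of the members.

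Other genes of these pathways were counted from a list of 69, of which 64 were analysed here. In DKO against WT 4 rose and 3 fell, 7 of 64 beside 3.3% of all clusters, with a median over the 64 of -0.11. Those that rose were Frrs1, a ferric reductase (0.93, adjusted p = 8.47e-04), Exoc6, an exocyst subunit needed for transferrin cycling (0.50, adjusted p = 0.0187), Slc25a28, mitoferrin 2 (0.34, adjusted p = 0.0453), and Mms19, of the cytosolic iron-sulphur machinery (0.34, adjusted p = 0.0464). Those that fell were Iba57 (-0.53, adjusted p = 0.0116) and Lyrm4 (-0.43, adjusted p = 0.0104), both of mitochondrial cluster assembly, and Klf1 (-0.41, adjusted p = 0.0487). Lyrm4 encodes the partner protein of the desulphurase NFS1.

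Frrs1 was the 1 gene of the 64 called in Klf3KO against WT, where it rose 2.38-fold (1.25 ± 0.15, limma, adjusted p = 3.48e-04), beside 0.585% of all clusters. In DKO against Klf8gt 5 of 64 were called, beside 3.35% of all clusters. Frrs1 (0.80) and Tspo, a protein of the outer mitochondrial membrane (0.57), rose. Cp, the plasma ferroxidase (a 2.47-fold fall), Lyrm4 (-0.45) and Slc25a32, a mitochondrial folate carrier (-0.37), fell. All 11 hepatocyte markers were also below 0 in that comparison (median -0.55), with 1 called lower. Cp differed by 0.99 in Klf8gt against WT, without a call. The part of hepatocytes in the Cp fall was not tested. Averaged over both Klf8 backgrounds, Frrs1 (1.03), Tspo (0.53) and Exoc6 (0.33) rose and Lyrm4 (-0.30) fell with Klf3 loss, 4 of 64 beside 2.38%. In limma 0 of the 64 were called in Klf8gt against WT, 0 in DKO against Klf3KO and 0 in the interaction, where 13, 17 and 17 had an unadjusted p under 0.05, beside 13.4%, 12.9% and 14.4% of all clusters.

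Markers of further cell types were counted in DKO against WT. Of 7 stromal markers 2 rose, Col1a1 (0.86) and Col1a2 (0.58), and of 7 progenitor markers 2 fell, Mecom (-0.73) and Cd48 (-0.63). Of 5 megakaryocyte, 6 endothelial, 7 granulocyte and 11 hepatocyte markers limma called 0, with 0, 1, 1 and 0 at an unadjusted p under 0.05. Of these cell types, only the hepatocyte markers entered a fit as a covariate, with the values given above. The part of these cells in the differences of the members was not tested.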

How the data were processed

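RNA of 15 samples was measured on 1 Affymetrix array each. The authors deposited log2 signals for each transcript cluster. Their submitters' processing notes list RMA and Partek with no version, and the sources used here name no genome build for it. Of 35556 clusters, 21789 carried 1 gene symbol in the platform annotation, which can be old, 1621 several and 12146 none. The 23410 with a symbol were tested, and for each gene the single-symbol cluster with the highest mean stood for it. Correlations between arrays ran from 0.974 to 0.992. Precision is limited by how many arrays each group has.

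With limma 3.58.1 (R 4.3.3), all 15 arrays entered a linear model of the 4 genotypes (eBayes without a trend, two-sided, 4.27 prior degrees of freedom). The procedure was tested on simulated data. Intervals are 95% intervals. The alternatives changed the variance prior, array weights, clusters tested, normalization, arrays and covariates. The members and gene lists were chosen with earlier results of these data known. Any member may be named, those past the threshold array by array, and other pathway genes where they passed. Gata1, Klf1, Tspo2 and Trf stand both in a marker list and in the list of other pathway genes. Some other genes of these pathways are not reported here. Sequences are from RefSeq, GRCm38.p6.

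Replicate numbers are in the labels, which do not say that they pair samples. Between Klf8gt and DKO the deviations of the 4 same-numbered pairs correlated at 0.53, 0.11, 0.16 and 0.18. Correlations between arrays of different numbers were not computed, so these values do not show whether the numbers pair the arrays. In the other comparisons the same-numbered correlations ran from -0.28 to 0.30, and pairing was likewise not tested.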

Additional observations from a re-analysis of the deposited data

Results flagged for a closer look

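In 9 of 108 combinations of a member and a group of 4 arrays, 1 array lay far from the other 3. Chance gives about 1 in 20. WT replicate 4 was low for Urod (12.95, nearest 13.17), Slc11a2 (10.61, nearest 10.87) and Glrx5 (12.65, nearest 12.81), 3 genes of different steps. Klf8gt replicate 1 was high for Urod (13.25, nearest 12.88), Slc11a2 (10.88, nearest 10.55) and Blvrb (12.15, nearest 11.81). DKO replicate 3 was low for Cpox (12.39, nearest 12.85), and DKO replicate 4 was high for Pcbp2 (12.92, nearest 12.66). WT replicate 1 was high for Hmox2 (9.24, nearest 9.08).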

How the results depend on the processing

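Counts of the 36 members past the threshold moved with many choices. In DKO against WT (4) there were 1 over all clusters, 2 after quantile normalization, 1 with the macrophage covariate, 14 without DKO replicate 1 and Klf8gt replicate 1 together, 0 with only its own groups, and 0 to 7 on leaving out 1 array. In DKO against Klf8gt (1) there were 2 with array weights, 0 over all clusters, 3 without dim clusters, 0 with arrays centred, 2 after quantile normalization, 2 with the replicate block, 0 with the macrophage or Y-linked covariate, 3 without both arrays, 0 with only its own groups, and 0 to 6 on leaving out 1 array. For averaged Klf3 loss (1) there were 4 with array weights, 2 without dim clusters, 2 after quantile normalization, 0 and 2 with the macrophage and Y-linked covariates, 3 without both arrays, and 0 to 2 on leaving out 1 array. In Klf8gt against WT (0) there were 7 with array weights (17.4% of all clusters called), 3 without both arrays (12.5%) and 0 to 1 on leaving out 1 array. The interaction (0) gave 1 with array weights, 1 without both arrays and 0 to 1, and DKO against Klf3KO (0) gave 0 to 1. The hepatocyte and erythroid covariates were chosen after seeing the data. The hepatocyte covariate gave 11 in DKO against WT (7.82% of all clusters), 3 in DKO against Klf3KO, 6 in DKO against Klf8gt and 7 for averaged Klf3 loss. The erythroid covariate gave 4 in DKO against WT, with Slc25a38 higher (0.31) and Alas1 (-0.42), Slc40a1 (adjusted p = 0.0289) and Aco1 (-0.43) lower, so that Uros, Tfr2 and Blvra were not among them. It gave 8 in DKO against Klf8gt (11.9% of all clusters), 7 for averaged loss, 2 for the interaction and 1 in Klf3KO against WT. Counts given here without a share of all clusters describe the fits and are not read as results about the members. The cause of these moves was not tested.

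Among the called members, the differences kept their direction under every alternative run. Slc40a1 was past the threshold in 25 of 30, Blvra in 15, Tfr2 in 14, Uros in 12, Steap3 in 13 of 30 in DKO against Klf8gt, and Tfr2 for averaged Klf3 loss in 25 of 29. With the replicate block, DKO against WT had 5 members, Urod being added (-0.52, adjusted p = 0.0325). Fits to only the compared groups were not possible for the averaged contrast and the interaction. With 3 or 4 arrays a group and no detection calls, small differences of dim genes were not resolved.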
